A study of Solanum lycopersicum with 4 samples.

Results

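Expansins are proteins of the plant cell wall that loosen it without cutting its polymers, by weakening the contacts between cellulose and the other wall glycans. They let cells enlarge during growth, and in tomato 1 of them, EXP1, accumulates as the fruit ripens and softens. Other family members act in growing fruit, in shoot tips or in germinating seeds, so the family spans growth and softening.

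Expression was measured in pericarp, the fruit wall, of tomato (*Solanum lycopersicum* cv. Moneymaker) on 4 GeneChip Tomato Genome Arrays. The groups were AtJUB1-OX at mature green (MG), AtJUB1-OX at breaker+7 (B+7, 7 days after the first colour change), wild type at MG and wild type at B+7, with 1 array each. AtJUB1-OX carries AtJUB1-GFP, an *Arabidopsis* NAC transcription factor fused to a fluorescent protein, under a cauliflower mosaic virus promoter that is active in most tissues. A single transgenic line, OX2, was carried forward in the study, and the number of fruits in each RNA is not given in the sources used here. With no replicates there is no test and no error between fruits, and every difference compares a pair of arrays.

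The expansin genes described are EXP1, exp18, EXP12, EXP5, EXPA6, EXPA10, exp9 and exp11, found by their symbol or synonym in the platform annotation. These 8 genes have 9 probe sets among 10101 analysed, of which 909 carry a gene name for 803 genes. A probe set is a group of short oligonucleotides that together measure a transcript, and the brighter of the 2 EXPA6 probe sets stands for that gene. The annotation names 4 further expansin genes, EXP2, EXPA3, EXPA4 and EXPA8, which are given for comparison. The 8 had been picked with earlier results of these arrays in view, so counts are also given over all 12.

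Values are log2 signals as deposited, so a difference of 1 is a doubling, and 1.5-fold, the cut-off of the study, is 0.58. The mean signal of a probe set over the 4 arrays had a median of 9.70. EXP1 (10.53) and EXP5 (11.21) lay above it and the other 6 genes below it, from 6.10 for exp11 to 8.05 for EXPA6. The 63 reporter probe sets, which target sequences common in transgenes, had medians between 3.36 and 3.66 on the arrays, below every signal of the 8 genes. Signals of different probe sets are not compared as transcript levels.

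The study designed qRT-PCR primers for expansin loci. Those of the loci paired here with EXP1, exp18 and EXP12 are shown. The list's further expansin locus is not paired with any of the 8 genes here, and its primers are not shown. They are not the probes of the array, and no value from them is used here. The pairing rests on the locus names and on the chromosome that RefSeq gives for each gene, and no primer was aligned to a gene or probe set. The loci of EXP1 and exp18 are both on chromosome 6, so the chromosome does not separate these genes. The primer list names the locus Solyc06g051800 expansin A4, and another list of the study names it expansin 1, and RefSeq places EXP1 but not EXPA4 on the chromosome in the locus name.
EXP1 forward: ctgcccaccaaattacgcgttg
EXP1 reverse: tgggatcctgcgataagttacagg
exp18 forward: acgcttctggtactatgggtggag
exp18 reverse: cgctgtgctaagtgctccattg
EXP12 forward: acaatgggttgagctgtggttc
EXP12 reverse: aaccaggcaaacacccttgtc

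The first question was whether expansin transcripts differed between AtJUB1-OX and wild type fruits of the same stage. At MG the EXP1 signal was 6.05 in AtJUB1-OX, against 10.39 in wild type, which makes a difference of -4.34 or 20.2-fold. At B+7 it was 13.09 in AtJUB1-OX, against 12.60 in wild type, which makes 0.49 or 1.40-fold. The AtJUB1-OX fruit thus had the lowest EXP1 signal of the 4 arrays at MG and the highest at B+7. The MG difference was the fifth lowest of all 10101 probe sets, and the B+7 difference ranked 528 from the highest. With signals under the 25th percentile (7.34) set to that value, the MG difference was -3.05. A single probe set measures EXP1, so no second probe set of the gene was at hand.

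**Figure D1:**
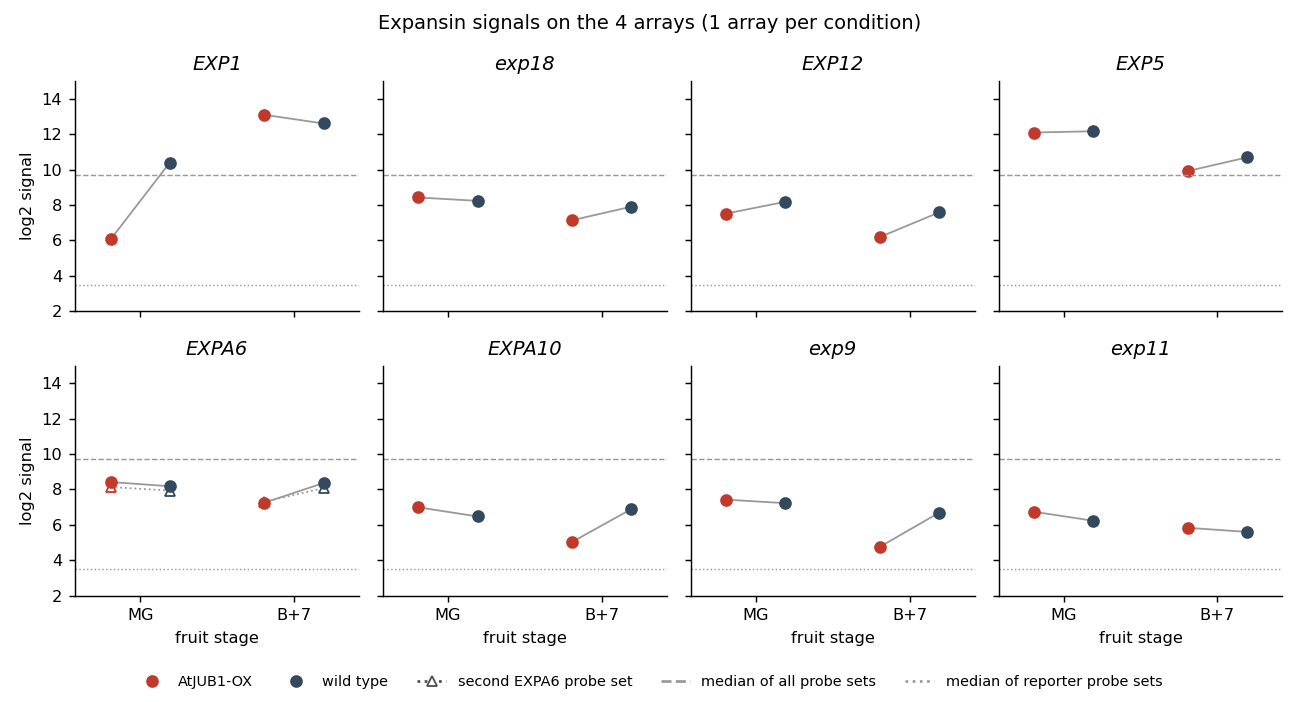
Log2 signal (y axis) of each expansin gene at MG and B+7 (x axis), with 1 point per array, AtJUB1-OX in red and wild type in dark blue, and lines joining arrays of 1 stage. Open triangles are the second EXPA6 probe set, the dashed line is the median of all probe sets and the dotted line the reporter median. At MG the EXP1 points differ by -4.34, and at B+7 the AtJUB1-OX points of 6 genes lie below wild type.

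Among ripe pericarp markers, MG fruits of AtJUB1-OX also differed from wild type. Of 6 measured, 3 were at least 1.5-fold lower in AtJUB1-OX at MG, namely E8 (-5.29), an ethylene-responsive ripening gene, and the MADS-box regulators RIN (-0.83) and TDR4 (-0.69). PG2, the fruit polygalacturonase gene, had 6.32 in AtJUB1-OX, against 3.98 in wild type (2.33), a wild type signal near the reporters, and both lay under 7.34, the 25th percentile of all signals. Psy1, a phytoene synthase gene of carotenoid synthesis, differed by -0.47 and the fruit gene 2A11 by 0.13. The green tissue markers PsbQ (-0.61) and CAB4 (-0.88) were lower as well. In wild type, E8 had 12.23 at MG and 13.06 at B+7, while in AtJUB1-OX it had 6.95 at MG and 13.07 at B+7. PG2 in wild type had 3.98 at MG and 14.16 at B+7. At B+7 none of these 8 genes differed by 1.5-fold, with differences from -0.42 for PsbQ to 0.09 for 2A11. The gap between 3′ and 5′ control probe sets, a measure of RNA integrity, was wider in AtJUB1-OX at MG by 0.13 for GAPDH, 0.18 for actin, 0.26 for ubiquitin and 0.53 for EF1a. The part of fruit stage or RNA integrity in the EXP1 difference was not tested, and less transcript per cell cannot be told apart from fewer expressing cells. Of the genes listed as seed markers, MAN2 stayed between 3.40 and 3.70, near the reporters, while LEA14 was between 12.93 and 13.44 on every array. These markers thus differ, and the presence of seed tissue was not tested.

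The genes that passed 1.5-fold between genotypes differed by stage. At MG, 2 of the 8 genes were at least 1.5-fold lower in AtJUB1-OX, EXP1 and EXP12, and none was higher, while 6.74% of all probe sets were lower and 6.67% higher. At B+7, 6 of 8 were lower and none higher, while 6.13% of all probe sets were lower and 3.53% higher. Over all 12 expansin genes the counts were the same, 2 lower at MG and 6 lower at B+7. The median difference of the 7 genes other than EXP1 was 0.20 at MG and -1.11 at B+7, that of all 12 was 0.20 and -0.58, and that of all probe sets was -0.05 and 0.00. Low signals pass 1.5-fold more often, and among probe sets below the median signal 8.63% were lower at B+7. With signals under the 25th percentile (7.34) set to that value, 2 of the 8 genes were lower at B+7, EXP5 and EXPA6. The counts of the 8 genes are a description, since these genes were picked with such differences known.

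**Figure D2:**
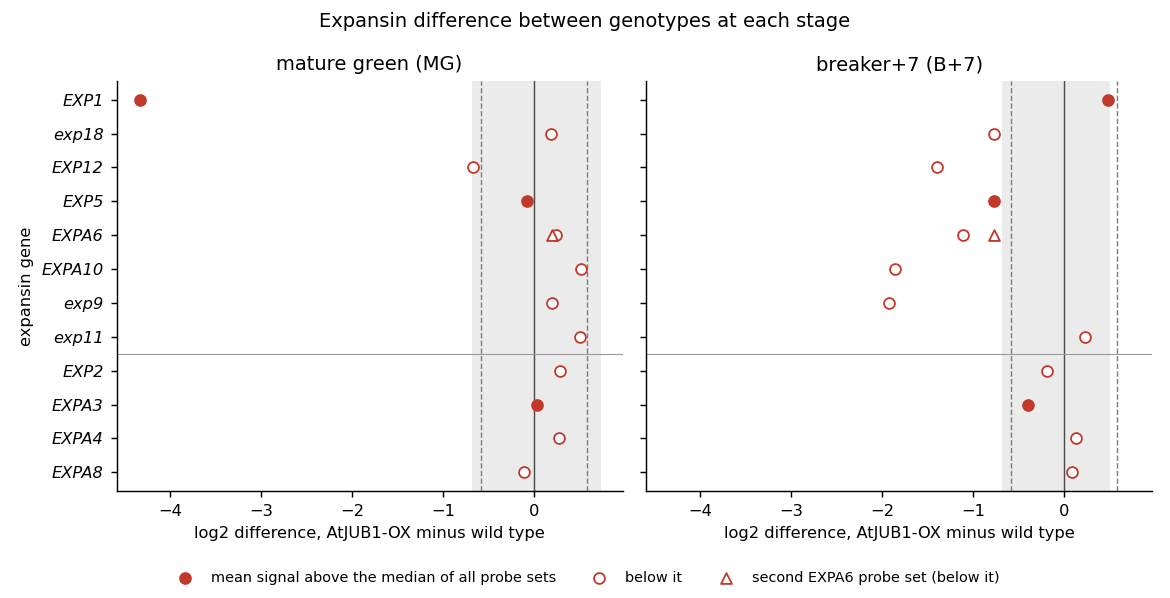
Difference of log2 signals (x axis), AtJUB1-OX minus wild type, of the 8 expansin genes and, under the line, of the 4 other expansin genes at MG (left) and B+7 (right). Filled points have a mean signal above 9.70, dashed lines mark 1.5-fold, and the grey band holds the 5th to 95th percentile of all probe sets (-0.67 to 0.72 at MG, -0.67 to 0.50 at B+7). At B+7, 6 genes lie left of the band.

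EXP5 and EXPA6 are known from growing fruit, and EXP5 transcript is known to decline as green fruit turns to ripening. At MG the EXP5 signal was 12.09 in AtJUB1-OX, against 12.16 in wild type, and at B+7 it was 9.92 in AtJUB1-OX, against 10.69 in wild type. Its differences were -0.07 at MG and -0.77 at B+7, so that the genotypes were close in green fruit and 1.70-fold apart later. Among probe sets above the median signal, where EXP5 lies, 3.62% were at least 1.5-fold lower at B+7.

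EXPA6 is the 1 gene of the 8 that was measured by 2 probe sets. At MG the brighter had 8.42 in AtJUB1-OX, against 8.18 in wild type, and at B+7 7.25 in AtJUB1-OX, against 8.36 in wild type. The dimmer had, at MG, 8.14 in AtJUB1-OX, against 7.94 in wild type, and at B+7 7.31 in AtJUB1-OX, against 8.07 in wild type. Both gave the same pattern, with differences of 0.24 and 0.20 at MG and of -1.11 and -0.76 at B+7. The pair thus differed by less at MG than at B+7, where both passed 1.5-fold. For scale, over 82 genes with several probe sets, the genotype difference varied between probe sets within a gene with a pooled SD of 0.26 at either stage, which leaves out the spread between fruits.

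exp18, an expansin known from shoot tips and young leaf primordia, had 8.42 in AtJUB1-OX, against 8.23 in wild type, at MG. At B+7 it had 7.14 in AtJUB1-OX, against 7.90 in wild type. The AtJUB1-OX value at B+7 was the lowest of the 4, with differences of 0.19 at MG and -0.77 at B+7. EXPA10, known from the growing embryo of germinating seeds, had 6.99 in AtJUB1-OX, against 6.47 in wild type, at MG, and 5.04 in AtJUB1-OX, against 6.89 in wild type, at B+7. Its B+7 difference of -1.85 is 3.62-fold, and at MG the difference was 0.52, short of the cut-off.

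exp9 had the largest B+7 difference of the 8 genes. At B+7 its signal was 4.76 in AtJUB1-OX, against 6.69 in wild type, a change of -1.92 or 3.79-fold, the 48th lowest of all probe sets. At MG it was 7.42 in AtJUB1-OX, against 7.23 in wild type (0.20). EXPA10 and exp9 at B+7 in AtJUB1-OX were the signals of the 8 genes nearest to the reporter median of that array, 3.66. With the floor at 7.34, which lies above every B+7 signal of both genes, neither keeps a difference at that stage.

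EXP12 was the 1 gene of the 8 past the cut-off at both stages. At MG it had 7.51 in AtJUB1-OX, against 8.18 in wild type (-0.67), and at B+7 6.19 in AtJUB1-OX, against 7.58 in wild type (-1.39, 2.62-fold). Both AtJUB1-OX signals lay below both wild type signals, though 7.51 and 7.58 were close, an order that no other of these genes showed. Its MG value goes under the cut-off (-0.53) once a loess curve of difference on signal is subtracted.

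exp11 was the 1 gene other than EXP1 that was not lower in AtJUB1-OX at B+7. At MG it had 6.74 in AtJUB1-OX, against 6.23 in wild type, and at B+7 5.83 in AtJUB1-OX, against 5.60 in wild type. The differences of 0.51 and 0.23 stayed within 1.5-fold. The one at MG was the larger in size whatever its sign, as it also was for EXP1, EXP2, EXPA4 and EXPA8. With the loess curve subtracted, exp11 (0.64) and EXPA10 (0.65) pass the cut-off at MG, and the count there becomes 2 higher and 1 lower.

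The 4 other expansin genes stayed within 1.5-fold between genotypes at either stage. EXPA3, also known from growing fruit and the brightest of them, had 12.55 in AtJUB1-OX, against 12.52 in wild type, at MG, and 11.14 in AtJUB1-OX, against 11.53 in wild type, at B+7 (-0.39). The differences of EXP2, known from auxin-driven stem growth, EXPA4 and EXPA8 were between -0.11 and 0.29 at MG and between -0.18 and 0.13 at B+7. EXPA8, known from the root tip of germinating seeds, stayed between 4.16 and 4.45 and so near the reporters.

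**Figure D3:**
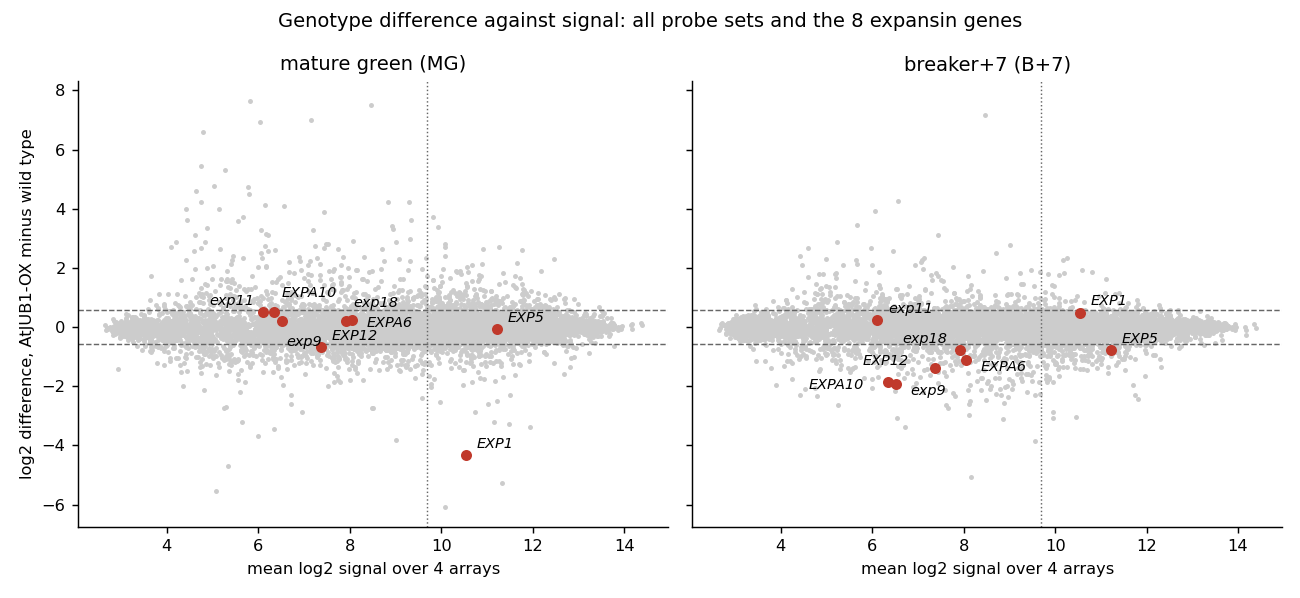
Difference of log2 signals, AtJUB1-OX minus wild type (y axis), against the mean log2 signal over the 4 arrays (x axis), at MG (left) and B+7 (right), with all 10101 probe sets in grey and the 8 expansin genes in red. Dashed lines mark 1.5-fold and the dotted line the median signal, 9.70. EXP1 (-4.34) stands apart at MG, and 5 of the 6 genes lower at B+7 lie left of the median signal.

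Among control probe sets at B+7, 25S ribosomal RNA had 7.80 in AtJUB1-OX, against 6.60 in wild type, and 17S ribosomal RNA 5.59 in AtJUB1-OX, against 5.11 in wild type, while the 3′ to 5′ gaps of the 4 control transcripts differed by -0.10 for actin to 0.04 for EF1a. The part of the ribosomal signal in the lower expansin values was not tested. The reporter medians at that stage were 3.66 in AtJUB1-OX and 3.59 in wild type.

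The second question was how the expansin genes changed from MG to B+7 in each genotype. These differences are built from the same 4 arrays as the genotype differences, so they are another view of the same values. EXP1 was higher at B+7 by 7.04 in AtJUB1-OX (13.09 at B+7, 6.05 at MG) and by 2.21 in wild type (12.60 at B+7, 10.39 at MG), or 131-fold and 4.63-fold. The AtJUB1-OX signal at MG lies under 7.34, the 25th percentile of all signals, and with a floor there the AtJUB1-OX change was 5.75 on the log2 scale. The AtJUB1-OX value ranked 10 and the wild type value 175 from the highest of the 10101 probe sets. The 7 others were all at least 1.5-fold lower at B+7 than at MG in AtJUB1-OX, from -0.91 for exp11 to -2.66 for exp9. In wild type 3 of these 7 were lower by that much, EXP5 (-1.48), exp11 (-0.63) and EXP12 (-0.60). Among all probe sets, 16.8% were lower and 19.1% higher in AtJUB1-OX, and 14.2% were lower and 13.9% higher in wild type. Below the median signal, 20.7% were lower and 25.3% higher in AtJUB1-OX, and 18.7% were lower and 16.5% higher in wild type. The floor at 7.34 leaves 3 genes lower at B+7 in AtJUB1-OX, EXP5, EXPA6 and exp18, and quantile normalization leaves 1 in wild type, EXP5.

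In wild type the remaining genes stayed within 1.5-fold, with exp9 at -0.54, exp18 at -0.33, EXPA6 at 0.18 and EXPA10 at 0.42. In AtJUB1-OX the change was -2.66 for exp9, -1.29 for exp18, -1.17 for EXPA6 and -1.95 for EXPA10. EXP5 was lower at B+7 in both genotypes, with -2.18 in AtJUB1-OX and -1.48 in wild type. EXPA3 was so too, with -1.41 in AtJUB1-OX and -0.99 in wild type, whereas EXP2 was higher by 1.27 in AtJUB1-OX and 1.75 in wild type. Every EXP2 signal (4.68 to 6.43) lay under 7.34, and with the floor there its change was 0 in both genotypes. Over all 12 genes, 2 were higher and 8 lower in AtJUB1-OX, and 2 higher and 4 lower in wild type. For this change the pooled SD within genes with several probe sets was 0.74 in AtJUB1-OX and 0.61 in wild type, larger than the cut-off, so changes near 1.5-fold such as those of exp11 and EXP12 in wild type lie within it.

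**Figure D4:**
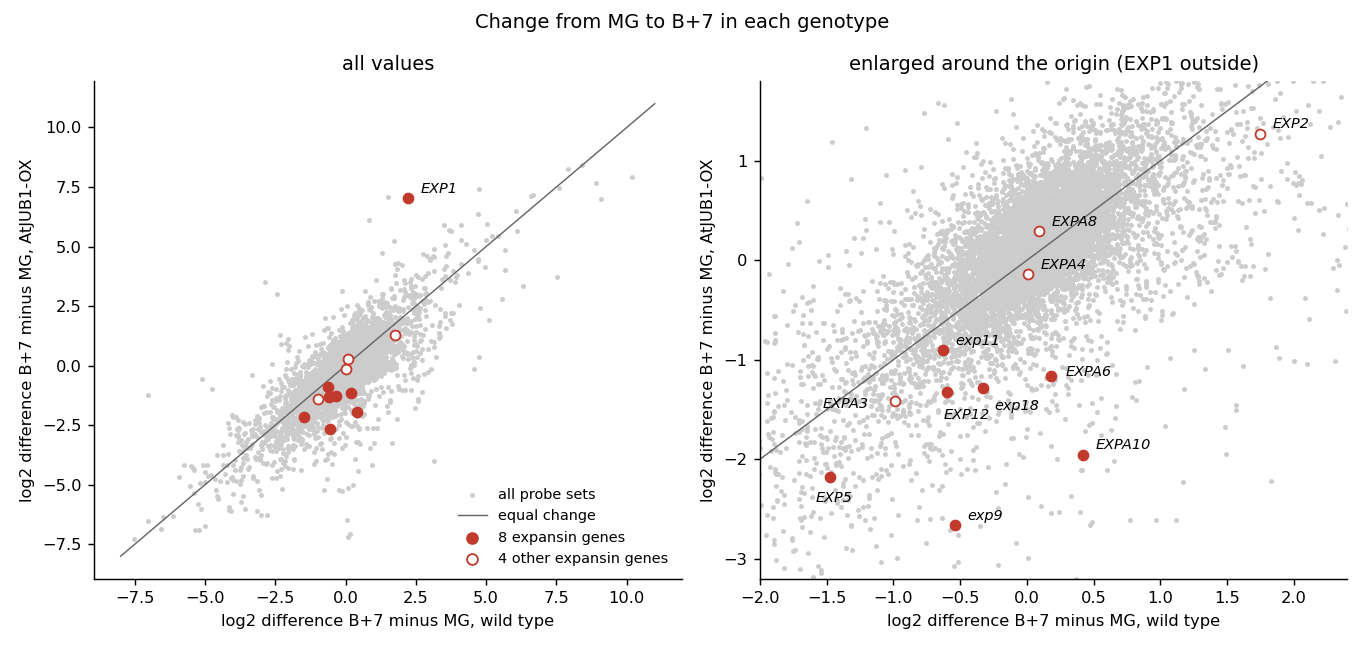
Difference of log2 signals, B+7 minus MG, in AtJUB1-OX (y axis) against wild type (x axis), for all probe sets (grey), the 8 expansin genes (filled red) and the 4 other expansin genes (open), with all values at left and the part around the origin at right. EXP1 lies at 7.04 in AtJUB1-OX and 2.21 in wild type, far above the line of equal change, and the 7 others lie below it.

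The difference between the genotype differences of the stages sums up each gene's pattern. B+7 minus MG it was 4.83 for EXP1 and negative for the 7 others, from -0.27 for exp11 to -2.37 for EXPA10. In the distance between mean-centred patterns over the 4 arrays, EXP1 was at least 4.54 from every other expansin gene, EXP2 being nearest. The smallest distance among the expansin genes was 0.38, between EXPA4 and EXPA8. exp18 and EXPA6 were 0.40 apart, exp18 and EXPA3 0.49 apart, and EXPA6 and EXPA10 0.63 apart.

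Outside the family, the genes most like EXP1 were sought among 470 named genes with a mean signal above the median. By the Euclidean distance of mean-centred log2 values over 4 arrays, the nearest were vis1, a small heat shock protein gene (1.33), E8 (1.37), the lipoxygenase gene loxC (1.46), AAT (1.78) and PPCK2, a phosphoenolpyruvate carboxylase kinase gene (1.9). At MG loxC had 4.89 in AtJUB1-OX, against 10.96 in wild type (-6.07), and at B+7 it differed by -0.53. For the other 4, the MG differences were between -5.29 and -1.66 and the B+7 differences between -0.20 and 0.25. All 5 were lowest in AtJUB1-OX at MG, which a choice by nearness to EXP1 favours. By Pearson's correlation, which ignores the size of a change, 0 of these 5 were among the 5 nearest. Among all probe sets, named or not, vis1 and E8 ranked first and second. For exp18, the nearest of 802 named genes of any signal were EIL2, a gene of the EIN3-like transcription factors (0.20), the MADS-box gene TDR6 (0.22) and the NADPH oxidase gene Wfi1 (0.25). Among all probe sets, named or not, they ranked only 18, 23 and 34. These distances are descriptions over 4 arrays, and smaller changes give smaller distances.

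**Figure D5:**
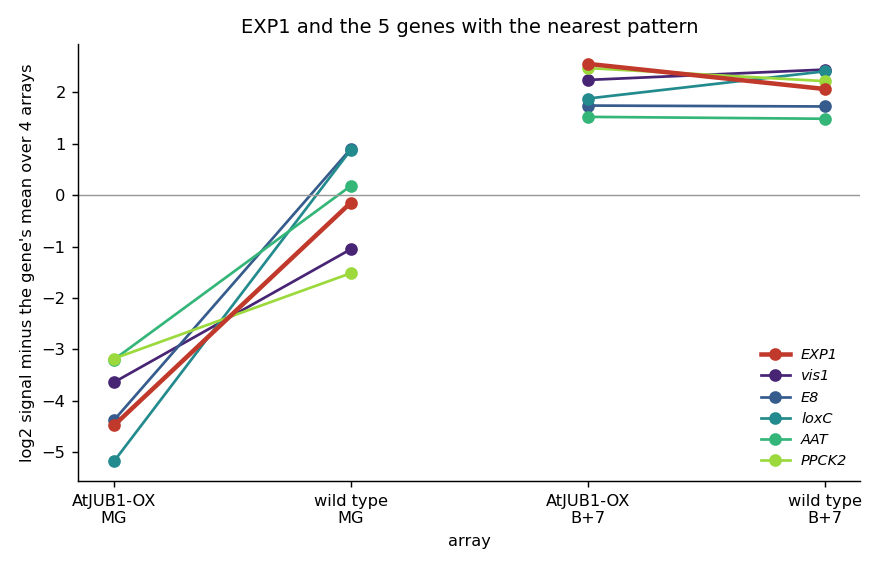
Log2 signal minus the gene's own mean over the 4 arrays (y axis) on each array (x axis), for EXP1 in red and the 5 named genes with the smallest distance to it, with lines joining arrays of 1 stage. All 6 genes are lowest in AtJUB1-OX at MG, and at B+7 the genotypes lie within 0.53 of each other.

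Other genes of wall remodelling were counted from a list of 33 named genes, itself drawn up with earlier results known. At MG 7 passed 1.5-fold upward in AtJUB1-OX and 4 downward, and at B+7 2 passed it upward and 10 downward. The shares over all probe sets were 6.67% upward and 6.74% downward at MG, and 3.53% upward and 6.13% downward at B+7. Most genes of the list are dim, and below the median signal the shares were 8.40% upward and 10% downward at MG, and 5.88% upward and 8.63% downward at B+7. Over the 33 genes the median difference was 0.04 at MG and -0.16 at B+7. Of the β-galactosidase genes, whose enzymes trim galactose from pectin side chains, TBG3 (-1.17) and TBG4 (-0.83) were lower at MG and differed by 0.38 and 0.50 at B+7, the directions of EXP1. TBG5 and TBG6 differed by 1.52 and 0.64 at MG and by -1.22 and -1.61 at B+7, and TBG7 was lower at B+7 (-0.76).

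XTH1, which encodes a xyloglucan endotransglucosylase, an enzyme that cuts and rejoins hemicellulose chains, had 11.74 in AtJUB1-OX, against 11.77 in wild type, at MG. At B+7 it had 7.62 in AtJUB1-OX, against 10.65 in wild type (-3.03), the lowest difference of the list. XTH3 (1.11) and, at the cut-off, XTH16 (0.59) were higher at MG, and XTH6 (-0.78) was lower at B+7. XTH7, at 5.48 or less on every array, had differences of -0.73 at MG and -0.95 at B+7. The mannanase gene Man4 was lower at B+7, with 11.05 in AtJUB1-OX, against 11.91 in wild type (-0.85). At MG its signals, 3.59 in AtJUB1-OX and 4.32 in wild type (-0.74), lay near the reporters and say little of transcript level. The pectin methylesterase gene PMEU1 (-1.08) and the endoglucanase gene cel7 (-1.15) were lower at B+7. Every B+7 signal of cel7, TBG7 and XTH6 lay under 7.34, so a floor there would leave these genes no difference at that stage. Cel1, another endoglucanase gene, was higher at both stages (0.95 and 1.13), and CEL8 was higher at B+7 (0.60). The wild type signal lay under 7.34 for Cel1 at MG and for CEL8 at B+7, as did the AtJUB1-OX signal of TBG4 at MG. TLRP, a gene of a tyrosine- and lysine-rich wall protein, differed by 3.71 at MG and -1.29 at B+7. Of the 33 genes, 14 have a mean signal above 9.70.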

How the data were processed

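Per the labels, total RNA of pericarp was hybridized to 4 arrays, 1 per genotype and stage. The deposited values are log2 signals of probe sets, already normalized between arrays by the authors. GCRMA and RMA appear in the submitters' processing notes, without version, role or order. Of 10209 probe sets, 108 controls were left out. Names came from the platform annotation of 2007, and 885 of 909 named probe sets were found in RefSeq's genes for assembly SLM_r2.1, from which names and the chromosomes of the primer loci were taken. No genome or sequence of the genes was used here.

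Comparisons are differences of deposited log2 values, counted at 1.5-fold. A single array per condition allows no test, and precision is limited by the small number of arrays. All 8 expansin genes, all other annotated expansin genes, the wall genes past 1.5-fold between genotypes, the 5 genes nearest to EXP1 and the 3 nearest to exp18 were named. Members, lists and rules were chosen with earlier results of these data known. Marker and wall lists were matched by annotation symbol, and members by symbol or synonym. The alternatives were median centring, quantile normalization, loess on signal (span 0.3), a floor at the 25th percentile (7.34), a 2-fold cut-off, the mean of a gene's probe sets, and Pearson's correlation in place of distance. The counting was tested on simulated data with known changes and low noise, which says nothing of how reliable the calls on these arrays are. Python 3.11.15, numpy 2.4.6, pandas 2.3.3, matplotlib 3.10.9, R 4.3.3 and limma 3.58.1 were used.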

Additional observations from a re-analysis of the deposited data

Results flagged for a closer look

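The genotype difference had opposite signs at MG and B+7, with at least 1 of them past 1.5-fold, in 5 of the 8 expansin genes, which were picked with such differences known. The same held for 9.67% of all probe sets, and for 13.2% of those below the median signal. With the floor at 7.34 it held for 2 of the 8, EXP1 and EXPA6, and for 5.47% of all probe sets. The difference at B+7 minus that at MG was 4.83 for EXP1, which was lower in AtJUB1-OX at MG. It was -2.37 for EXPA10, -2.12 for exp9, -1.35 for EXPA6 and -0.96 for exp18, which were lower in AtJUB1-OX at B+7. With 1 array per condition none of these was tested, and for EXP1, EXPA10, exp9, EXPA6 and exp18 the smaller of the 2 opposite differences stayed within 1.5-fold.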

How the results depend on the processing

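The EXP1 differences kept their direction and their side of 1.5-fold under median centring, quantile normalization, loess and the floor. In AtJUB1-OX the ripening change of EXP1 ranged from 5.75 with the floor to 7.13 with quantile normalization. At MG EXP1 ranged from -4.42 with quantile normalization to -3.05 with the floor. Of 132 member differences under the alternatives, 117 kept their side of the cut-off, 12 fell under it and 3 passed it, and none past the cut-off changed sign. Against 0 higher and 2 lower at MG, 6 lower at B+7, and ripening decreases in 7 genes in AtJUB1-OX and 3 in wild type as deposited, the counts moved as follows. With loess, 2 expansin genes were higher and 1 lower at MG. With the floor, by construction, dim genes lose their differences, and 2 were lower at B+7 (EXP5 and EXPA6) and 3 had a ripening decrease in AtJUB1-OX. In wild type 1 had a ripening decrease with quantile normalization, 2 with the floor and 4 with loess, where exp9 (-0.65) passes. With a 2-fold cut-off 1 was lower at MG and 1 had a ripening decrease in wild type, while 4 were lower between genotypes at B+7. Of the 33 wall genes, 4 were higher and 1 lower at MG, and 1 higher and 6 lower at B+7, at 2-fold. By Pearson's correlation, which ignores the size of a change, 0 of the 5 genes nearest to EXP1 stayed among the 5. No paired analysis was possible because each condition has 1 array. Dim signals limit EXP12, EXPA10, exp9 and exp11, each of which lost 2 calls with the floor.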
